A study of Mus musculus with 6 samples.

Results

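The guanylate-binding proteins (GBPs) and the immunity-related GTPases (IRGs) are cytosolic GTPases that cells make in response to interferons, above all interferon gamma. They coat vacuoles that hold pathogens, and GBPs also bind bacterial surfaces and help to activate inflammasomes. In mouse the GBPs are divided between a chromosome 3 and a chromosome 5 cluster, and the IRGs comprise regulatory proteins, which hold the others inactive on the cell's own membranes, and effector proteins, which load onto the vacuole. The genes taken here are the 10 whose symbols appear on a chosen list: Gbp2, Gbp3, Gbp5 and Gbp7 of the chromosome 3 cluster, Gbp4 and Gbp6 of the chromosome 5 cluster, the regulatory IRGs Irgm1, Irgm2 and Igtp (also called Irgm3), and the effector IRG Iigp1 (also called Irga6). All 10 were found among the 23518 gene symbols of the table, and all 10 passed the filter on low values.

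RNA was sequenced from mouse ear skin on day 1 of topical imiquimod, which activates Toll-like receptors and is used in mice to model psoriasis. There were 3 HdR and 3 wild-type (WT) samples, and 10 mg of 5% imiquimod cream was applied to ears. HdR, as read from the series' design, denotes mice whose HOIL1 protein, the product of Rbck1, lacks RING1; HOIL1 is a subunit of the linear ubiquitin chain assembly complex. Every sample was treated, so the comparison bears on skin under imiquimod only, and the labels give no strain, age or sex.

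The deposited values were aligned bases summed per gene, 4433 to 5264 Mb per HdR library and 5038 to 5966 Mb per WT library. Levels below are scaled coverage, in bases per aligned Mb. Each change is the HdR mean minus the WT mean of log2(level + 1), from limma with Benjamini-Hochberg adjustment over 15049 genes. Expressed as pairs of 150-base reads, the 10 genes rest on 354 (Gbp5, HdR replicate 2) to 15259 (Iigp1, WT replicate 2) pairs per library. Rbck1, the altered gene, had coverage of 23.9, 13 and 19.7 in HdR and 66.6, 55.1 and 64.1 in WT; the table sums whole genes, so the deleted part cannot be viewed alone. Keratinocyte markers were abundant in every library, summing to 8550 to 10000 in HdR and 11200 to 13000 in WT. Long transcripts had lower coverage in HdR relative to WT across the table. Log2 coverage was first centred for every gene across all libraries, then regressed on log2 transcript length. The slopes ran from -0.272 to -0.0805 in HdR and from 0.0404 to 0.247 in WT. Centring makes these slopes relative between libraries, so their signs do not show whether coverage itself falls or rises with length. Values with this length trend removed are given beside many results.

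All 10 genes had lower mean coverage in HdR than in WT skin, but the change passed the test in 2, Gbp3 and Gbp6. Among all 15049 genes tested, 30.6% were called in either direction and 17.9% were called lower in HdR, so 2 of 10 is close to the background. None of the 10 was called higher by limma; at an unadjusted p under 0.05 the counts were 0 higher and 3 lower, and by voom with quality weights 0 higher and 3 lower. The median log2 change of the 10 genes was -0.45, against -0.13 over all genes tested. For Gbp3, Gbp6 and Gbp7 all HdR libraries lay below all WT libraries, a pattern held by 30.7% of the genes tested; 51.5% had no overlap in either direction. With the length trend removed 1 of the 10, Gbp3, was called lower, against 8.48% of all genes. With the replicate number as a block, 4 of the 10 were called lower, Gbp2, Gbp3, Gbp6 and Gbp7, against 27.2% of all genes. In RNA from whole skin, fewer cells of a type that makes these transcripts and less RNA per cell cannot be told apart.

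Gbp3 showed the clearest difference. This gene (ENSMUSG00000028268.14; chromosome 3, 142560026 to 142573209 of GRCm38, plus strand) belongs to the chromosome 3 cluster. Its coverage was 122, 83.5 and 79.7 in HdR replicates 1, 2 and 3 and 235, 325 and 170 in WT replicates 1, 2 and 3. The groups did not overlap, and the HdR mean of 95.1 ± 23.5 was 39.1% of the WT mean of 243 ± 77.7 (SD, n = 3 each). Gbp3 fell, with a log2 change of -1.32 (SE 0.26, 95% interval -1.91 to -0.73; limma adjusted p = 0.0129). Its change was -1.28 with the length trend removed and -1.07 without WT replicate 2, and both passed. Without WT replicate 1 the change was -1.32 and just missed the threshold (limma adjusted p = 0.0549).

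The neighbours of Gbp3 in the chromosome 3 cluster had smaller differences. Gbp7 (ENSMUSG00000040253.15; chromosome 3, 142530342 to 142550149), whose protein has been linked in mouse to the delivery of oxidase subunits and autophagy proteins to bacteria, read 121, 113 and 122 in HdR and 189, 258 and 132 in WT. All HdR libraries lay below all WT libraries, and the HdR values were nearly equal while WT replicate 2 stood at 1.95 times the level of WT replicate 3. The log2 change of -0.65 (SE 0.23, 95% interval -1.17 to -0.12) did not pass (limma adjusted p = 0.0608). It passed with the replicate block (adjusted p = 0.0317) and without WT replicate 3 (-0.88, adjusted p = 0.039), and was -0.22 with the length trend removed. Gbp7 has the longest transcript of the 10 genes, 5614 bases. Of its exon bases 11.3% overlap the pseudogene Gm43802 on the same strand, and 8.93% of its 150-base windows occur there.

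Gbp2 (ENSMUSG00000028270.12; chromosome 3, 142620602 to 142638008), which encodes a lipid-anchored GBP that gathers on Toxoplasma vacuoles, read 330, 407 and 139 in HdR and 383, 668 and 297 in WT. The groups overlapped, with HdR replicates 1 and 2 above WT replicate 3. HdR replicate 3 was the lowest of all libraries, and Gbp2 was the gene with the widest HdR spread of the 10, a ratio of 2.93 between highest and lowest. The change of -0.67 (SE 0.42, 95% interval -1.62 to 0.27) did not pass (limma adjusted p = 0.233), but did with the replicate block (adjusted p = 0.017). Gbp5 (ENSMUSG00000105504.4; chromosome 3, 142493978 to 142522344), reported in mouse to promote assembly of the NLRP3 inflammasome, was the least covered, at 29.5, 30.2 and 38.7 in HdR and 46, 67.5 and 30.5 in WT. Its groups overlapped, HdR replicate 3 lying above WT replicate 3, and the change of -0.47 (95% interval -1.08 to 0.13) did not pass (limma adjusted p = 0.194).

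Gbp6, in the chromosome 5 cluster (ENSMUSG00000104713.4; 105270702 to 105293698, minus strand), read 94.7, 68.6 and 68.1 in HdR and 141, 187 and 95.3 in WT. HdR replicate 1 lay just under WT replicate 3, so the groups were separated by a narrow gap. Gbp6 fell, in the test on all libraries, with a log2 change of -0.83 (SE 0.25, 95% interval -1.40 to -0.26; limma adjusted p = 0.038). The call was lost with the length trend removed (-0.51, limma adjusted p = 0.181). It was also lost without HdR replicate 2 (-0.75, limma adjusted p = 0.113), HdR replicate 3 (-0.75, adjusted p = 0.0887), WT replicate 1 (-0.80, adjusted p = 0.122) or WT replicate 2 (-0.58, adjusted p = 0.0693). Of the 150-base windows of its longest transcript, 43.4% occur exactly in another annotated gene, 22.2% in Gbp10 and 35% in Gm43302. The Gm43302 model overlaps Gbp6 itself, by 1726 exon bases on the same strand (29%), and is not among the deposited symbols. Reads of Gbp6 may be shared with these genes. Gbp4 (ENSMUSG00000079363.7; chromosome 5, 105115767 to 105139586, minus strand) read 112, 70.6 and 80.7 in HdR and 97.4, 149 and 62 in WT. WT replicate 3 lay below every HdR library, and the change of -0.17 (95% interval -0.86 to 0.52; limma adjusted p = 0.69) turned positive, 0.18, with the length trend removed and 0.16 without WT replicate 2.

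**Figure D1:**
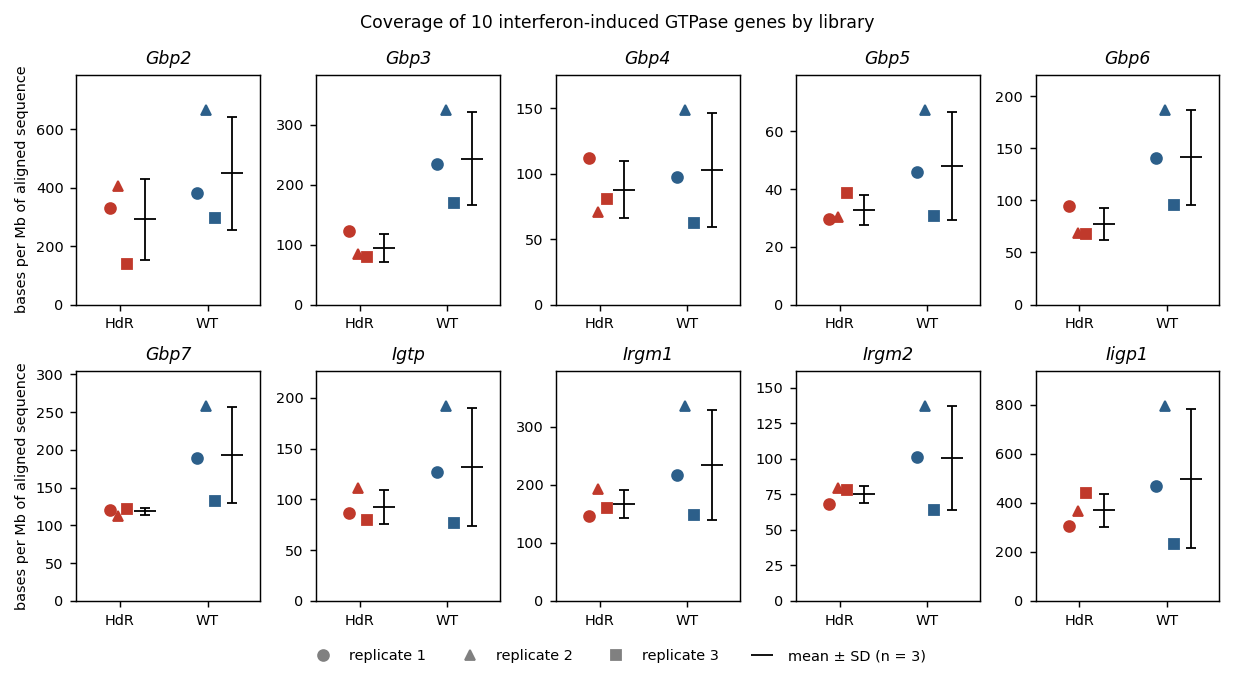
Coverage of each gene (bases per Mb, linear axes from 0) in the HdR and WT libraries; symbols mark replicate numbers and bars the mean ± SD (n = 3). WT replicate 2 is the highest library in all 10 panels, and the HdR points lie below all WT points in 3 panels, Gbp3, Gbp6 and Gbp7.

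The regulatory IRGs on chromosome 11 had overlapping groups and passed the test in no case. Irgm1 (ENSMUSG00000046879.7; 48861968 to 48871683, minus strand), whose protein sits on the cell's own membranes and is linked to autophagy, read 147, 193 and 161 in HdR and 217, 336 and 149 in WT. Irgm2 (ENSMUSG00000069874.7; 58199618 to 58222782) read 68, 79.1 and 77.9 in HdR and 101, 137 and 63.8 in WT. Igtp (ENSMUSG00000078853.8; 58199556 to 58207591) read 86.6, 111 and 79.6 in HdR and 127, 192 and 76.8 in WT. In Irgm2 and Igtp, WT replicate 3 was the lowest of all libraries, and in Irgm1 it lay just above the lowest HdR library. Their log2 changes were -0.42 for Irgm1 (95% interval -1.04 to 0.21), -0.35 for Irgm2 (-0.93 to 0.22) and -0.43 for Igtp (-1.11 to 0.26), with limma adjusted p from 0.262 to 0.298. Each interval includes 0 as well as differences near -1. With scaling to total bases Irgm1 was called (-0.74, limma adjusted p = 0.0414), and Igtp was called with the length trend removed and the replicate block (adjusted p = 0.0397). The annotated exons of Irgm2 and Igtp share 162 bases on the same strand, 8.01% of those of Igtp, so part of their coverage may be interchanged.

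Iigp1 (ENSMUSG00000054072.12; chromosome 18), the effector IRG of the set, was with Gbp2 the most covered. Its coverage was 305, 365 and 439 in HdR and 470, 795 and 231 in WT. WT replicates spanned a ratio of 3.43, the widest of the 10 genes, and enclosed all HdR values. The log2 change was -0.28 (SE 0.39, 95% interval -1.16 to 0.61; limma adjusted p = 0.601), and 0.17 without WT replicate 2.

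**Figure D2:**
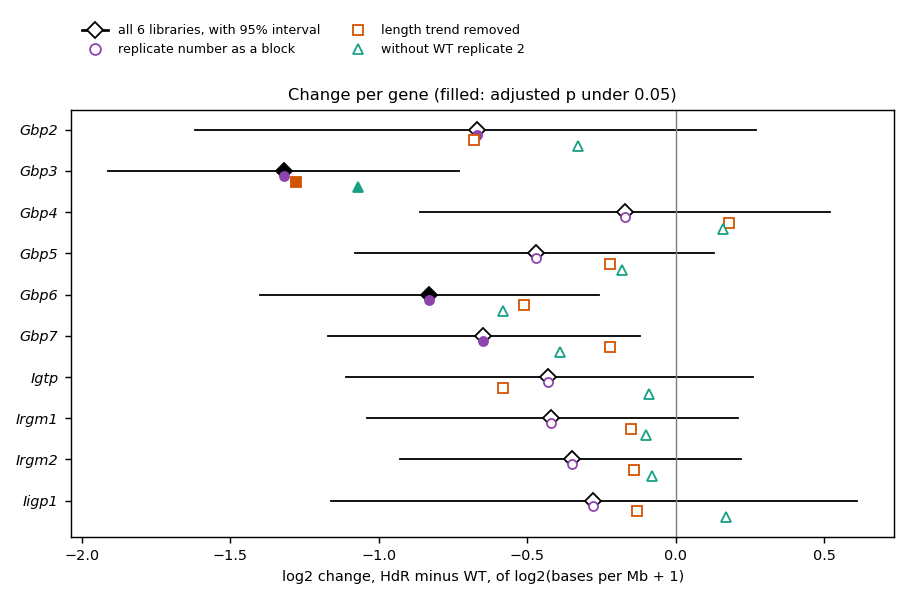
Log2 change of each gene, HdR minus WT, with the 95% interval of the fit on all libraries (black diamonds) and the change with a replicate block, with the length trend removed and without WT replicate 2; filled symbols passed an adjusted p under 0.05. Gbp3 passed in all 4 fits, and without WT replicate 2 the changes of Gbp4 (0.16) and Iigp1 (0.17) lay above 0.

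WT replicate 2 was the highest of all 6 libraries for 10 of 10 genes, and WT replicate 3 was the lowest WT library for 10 of 10. WT replicate 1 lay above every HdR library for 8 of 10, and WT replicate 3 lay below every HdR library for 4 of 10. The SD of the WT libraries was larger than that of the HdR libraries for 10 of 10. Relative to each gene's mean over all libraries, the median log2 deviation of the 10 genes was -0.30, -0.24 and -0.27 in HdR replicates 1, 2 and 3 and 0.25, 0.83 and -0.34 in WT replicates 1, 2 and 3. WT replicate 3 was therefore at the HdR level for the set, while the medians of all tested genes stayed between -0.14 and 0.07. Without WT replicate 2 the median log2 change of the 10 genes was -0.14 and 1 gene, Gbp3, was called lower, against 22.6% of all genes. No gene of the 10 was called without WT replicate 1, where 1.55% of all genes were called lower.

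Levels between genes were compared per kb of the longest annotated transcript, which need not be the one expressed. In HdR, Iigp1 (118 bases per Mb per kb) and Gbp2 (116) were followed by Igtp (45.8), Irgm1 (43.6) and Gbp3 (35.5), then Irgm2 (21.3), Gbp7 (21.1), Gbp4 (19.3), Gbp6 (18.2) and Gbp5 (8.73). In WT, Gbp2 (179) and Iigp1 (160) came first, then Gbp3 (90.7), Igtp (65.3), Irgm1 (61.2), Gbp7 (34.4), Gbp6 (33.3), Irgm2 (28.5), Gbp4 (22.7) and Gbp5 (12.8). In HdR the means of neighbours differed by more than the larger SD of the pair at 3 steps, Gbp2 to Igtp, Gbp3 to Irgm2 and Gbp6 to Gbp5, and in WT at 2, Irgm1 to Gbp7 and Gbp4 to Gbp5. For other neighbours the gap was no larger than that SD, a rule that ignores that genes varied together across libraries. Within single libraries, each of these other pairs in HdR changed order in some library. In WT only Igtp and Irgm1 did, with Irgm1 above Igtp in WT replicate 3 (38.9 against 38). Gbp3 was the fifth of the 10 in HdR and the third in WT.

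A comparison within each library removes the variation that the genes share. Log2 coverage of Gbp3 relative to the mean of the other 9 genes was 0.09, -0.49 and -0.40 in HdR and 0.57, 0.46 and 0.73 in WT, and the groups did not overlap. Gbp4 went the other way, at -0.05, -0.75 and -0.38 in HdR and -0.83, -0.78 and -0.87 in WT. Every HdR library lay above every WT library, by a narrow gap between replicates 2 of both groups. Gbp3 is among the 9 genes of the reference for Gbp4, so the lower Gbp3 in HdR raises this relative level. For the other 8 genes the groups overlapped, with differences from -0.30 (Gbp6) to 0.31 (Iigp1). The relative level of Gbp2 was 0.48 in HdR replicate 3 and between 1.35 and 2.03 in the other 5 libraries. These values are descriptive and were not tested.

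**Figure D3:**
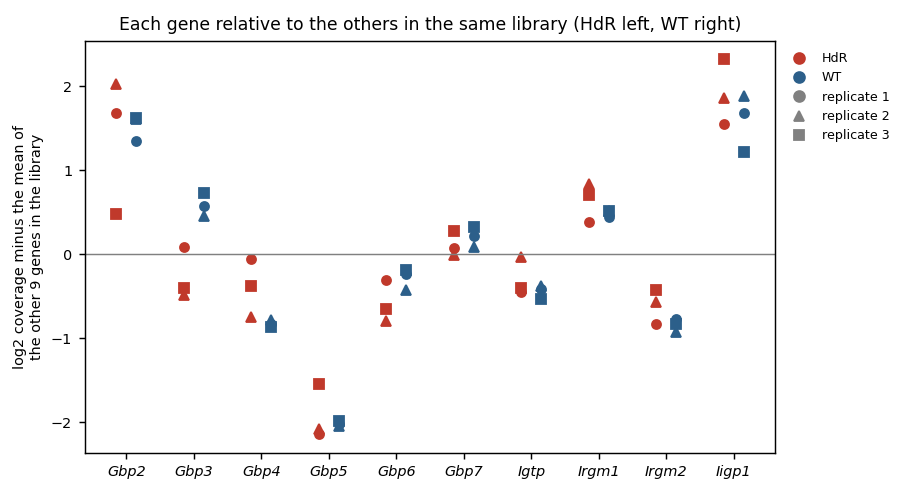
Log2 coverage of each gene minus the mean of the other 9 in the same library, with HdR points left and WT points right for each gene and symbols for replicate numbers. Gbp3 is lower and Gbp4, by a narrow gap (-0.75 against -0.78), higher in every HdR library than in every WT library. Gbp2 in HdR replicate 3 (0.48) lies apart from its other libraries.

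Pearson r of log2 coverage between pairs of the 10 genes over the 6 libraries ran from 0.43 (Gbp2 with Iigp1) to 0.98, with a median of 0.77 over 45 pairs. After removal of genotype means it ran from 0.26 (Gbp2 with Gbp5) to 0.99, with the same median. These values are descriptions over 6 libraries that differ in depth and length trend.

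Promoter sequence was examined because the genes varied together across libraries. Windows from 250 bases before to 50 bases after the annotated start were taken from a RefSeq table (GRCm38.p6). The search covered 7 of the 10 genes: Gbp2, Gbp3, Gbp5, Gbp7, Igtp, Irgm1 and Irgm2. Windows of Gbp4, Gbp6 and Iigp1 were not searched, so the results do not bear on those genes. Both strands were searched for 3 motifs. The ISRE, bound by the type I interferon factor ISGF3 and by IRF proteins, was GAAA, any 2 bases, GAAA. The GAS, the interferon gamma-activated site, was TTC, any 3 bases, GAA, which reads the same on both strands. The NF-kB motif was GGGA, any 1 base, TTTCC. All 7 genes had an ISRE match in a window, against 3.44% of 32851 RefSeq windows of the same length. GAS matches stood in 4, Gbp5, Gbp7, Igtp and Irgm2, against 8.3% of windows, and the NF-kB motif in 1, Gbp5, against 0.411%. Gbp3 has another annotated start whose window held no match. A match is a sequence description and does not show binding.

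Sequences of 4 windows are printed 5′ to 3′ on the gene's strand, with letters of matches to the motifs, on either strand, in capitals. Gbp3 (chr3:142559794-142560093, plus strand) is shown as the gene with the clearest difference and has ISRE matches only, which overlap each other. Gbp5 (chr3:142496684-142496983, plus strand) carries all motifs, in the order GAS, ISRE, NF-kB, GAS. Igtp (chr11:58199306-58199605, plus strand) and Irgm2 (chr11:58214727-58215026, plus strand) share a GAS followed at once by an ISRE.
Gbp3: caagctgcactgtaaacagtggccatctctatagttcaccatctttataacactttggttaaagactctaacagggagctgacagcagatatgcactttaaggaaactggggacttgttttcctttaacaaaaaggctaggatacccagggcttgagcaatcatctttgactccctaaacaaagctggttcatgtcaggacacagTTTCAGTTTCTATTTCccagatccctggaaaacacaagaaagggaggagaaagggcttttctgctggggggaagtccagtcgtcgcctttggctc
Gbp5: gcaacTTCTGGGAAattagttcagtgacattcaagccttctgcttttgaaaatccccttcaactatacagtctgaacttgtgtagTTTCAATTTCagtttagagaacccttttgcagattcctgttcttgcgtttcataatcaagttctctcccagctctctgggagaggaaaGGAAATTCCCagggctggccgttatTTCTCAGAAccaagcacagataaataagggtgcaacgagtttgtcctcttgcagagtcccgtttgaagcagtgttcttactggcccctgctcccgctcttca
Igtp: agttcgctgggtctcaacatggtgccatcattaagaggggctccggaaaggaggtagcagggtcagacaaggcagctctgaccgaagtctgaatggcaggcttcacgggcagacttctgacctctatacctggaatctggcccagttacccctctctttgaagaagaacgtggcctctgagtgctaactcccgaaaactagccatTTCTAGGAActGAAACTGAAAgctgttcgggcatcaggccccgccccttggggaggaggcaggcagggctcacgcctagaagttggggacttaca
Irgm2: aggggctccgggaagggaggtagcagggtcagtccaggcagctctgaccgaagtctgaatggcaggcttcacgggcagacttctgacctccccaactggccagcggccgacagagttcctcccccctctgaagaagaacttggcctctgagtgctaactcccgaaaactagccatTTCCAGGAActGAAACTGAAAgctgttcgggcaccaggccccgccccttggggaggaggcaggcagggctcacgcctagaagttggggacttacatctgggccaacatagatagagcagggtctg

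The ISRE of Igtp lay at -34 to -25 from the start and that of Irgm2 at -64 to -55, each 2 bases after its GAS. Matches of Gbp3 spanned -45 to -30, that of Gbp2 lay at -59 to -50 and that of Gbp7 at -53 to -44, with GAS matches at -106 to -98 and -87 to -79. The Gbp5 ISRE was more distant, at -165 to -156, and its NF-kB match lay at -77 to -68. Gbp3, the called gene, and Gbp2 and Irgm1, which were not called, had ISRE matches without a GAS in this window.

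**Figure D4:**
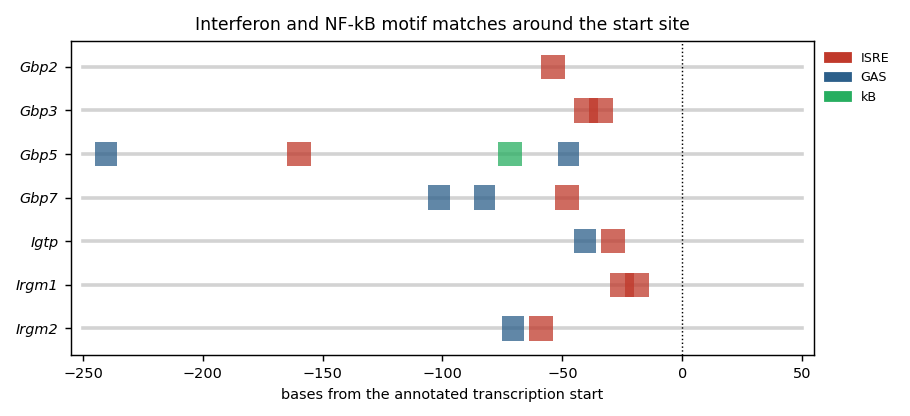
Positions of ISRE, GAS and NF-kB (kB) motif matches in the 300-base windows of 7 genes, as bases from the annotated start. Each gene has an ISRE match, which lies between -64 and -15 in 6 of them and at -165 to -156 in Gbp5.

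Few of the other genes of both families were called, where 30.6% of all genes tested were called in either direction. Of 5 further GBP genes in the table (Gbp2b, Gbp8, Gbp9, Gbp10 and Gbp11) 0 were called in either direction by limma, 0 had an unadjusted p under 0.05 and voom called 0; their median log2 change was -0.50. With the replicate block 3 were called lower (27.2% of all genes), with scaling to total bases 2 (28.6%), and without WT replicate 3 it was 1 (5.04%). Of 11 further IRG genes tested, F830016B08Rik was called lower, at 14.6 ± 11.8 in HdR and 44.8 ± 22.7 in WT (log2 change -1.68, limma adjusted p = 0.036); the median was -0.40. Its call was lost with no filter (adjusted p = 0.0905), with the length trend removed (0.0597), without HdR replicate 2 (0.133) or HdR replicate 3 (0.0837), and without WT replicate 1 (0.0962) or WT replicate 2 (0.0671), each limma adjusted p. In the list, 2 were called lower without WT replicate 3 and 3 with scaling to total bases. Tgtp1 and Tgtp2, effector IRGs with near-identical sequence, had changes of 0.00 and 0.10. WT replicate 2 was the highest library for 4 of the 5 further GBP and 9 of the 11 further IRG genes.

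The dynamin-like Mx GTPases, which block virus replication and answer mainly to type I and type III interferon, were both lower. Mx1 fell to 107 ± 22.5 in HdR, against 294 ± 142 in WT (log2 change -1.37, limma adjusted p = 0.0174), and Mx2 fell to 25.7 ± 12.1, against 51.6 ± 11.1 (-1.05, adjusted p = 0.0342). Of the very large GTPases tested, Gm17757 was higher (1.04, adjusted p = 0.0339) and Gvin1 was 36.2 ± 9.41 in HdR and 32.1 ± 9.37 in WT (adjusted p = 0.632); Gvin1 and Gm4070 had nearly identical values and may hold the same reads. Mx1 lost its call without WT replicate 1, and Mx2 lost it without HdR replicate 1, HdR replicate 2, WT replicate 1 or WT replicate 2 and with quantile scaling. With no filter on low values Mx1 (limma adjusted p = 0.0528), Mx2 (0.0804) and Gm17757 (0.0749) all missed the threshold. The Gm17757 call was also lost with scaling to total bases and without any one library other than WT replicate 2.

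Of 30 type I interferon-stimulated genes, 18 were called lower and 0 higher by limma, against 17.9% and 12.7% of all genes tested. The counts were 21 and 0 at an unadjusted p under 0.05 and 22 and 0 by voom. The median log2 change was -1.05. For 17 of the 30 all HdR libraries lay below all WT libraries, against 30.7% of all genes tested. In the other 13 the groups overlapped, among them Isg15 (-0.36, limma adjusted p = 0.581) and Irf7 (-0.58, adjusted p = 0.499). Eif2ak2, the gene of the RNA-activated kinase PKR, stood at 66.4 ± 3.43 in HdR and 182 ± 13.1 in WT (-1.44, limma adjusted p = 0.00167). The lower count was 12 without HdR replicate 1, HdR replicate 2 or WT replicate 2, 8 without WT replicate 1, and 16 with the length trend removed. Whether the 10 GTPase genes differ from this list was not tested. By library, the list's median deviation was -0.59, -0.45 and -0.67 in HdR and 0.53, 0.90 and 0.05 in WT. WT replicate 2 was again the highest, but WT replicate 3 remained above every HdR library, which it did not for the 10 GTPase genes.

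**Figure D5:**
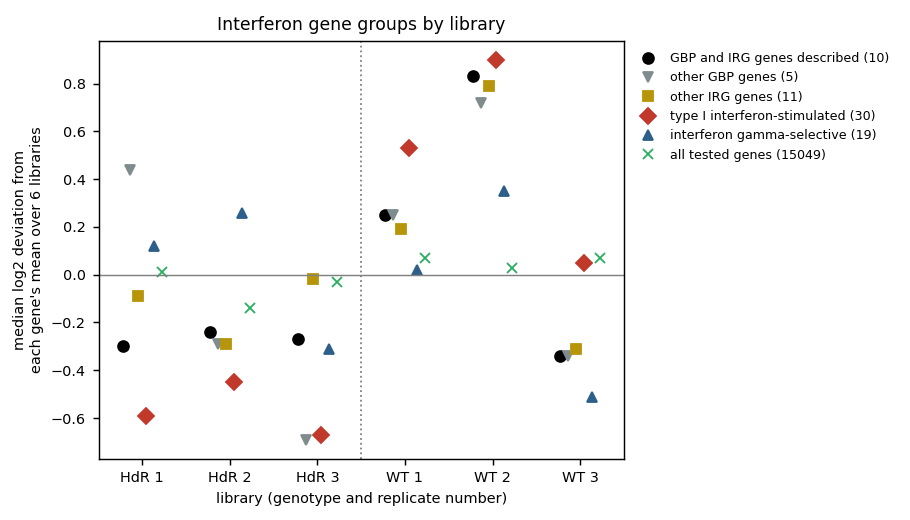
Median log2 deviation from each gene's mean over the 6 libraries, for interferon gene groups and all tested genes, by library. The median of the type I interferon-stimulated genes is higher in all WT than in all HdR libraries. That of the 10 GBP and IRG genes in WT replicate 3 (-0.34) is no higher than in HdR (-0.30 to -0.24).

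Components of the interferon gamma pathway moved both ways. Jak1, a kinase of the receptor, fell to 86.4 ± 17.7 in HdR, against 138 ± 12.2 in WT (log2 change -0.69, limma adjusted p = 0.0282). The receptor gene Ifngr1 rose to 133 ± 6.33 in HdR, against 75.6 ± 2.8 in WT (0.80, adjusted p = 0.00979), and Ifngr2 rose (0.79, adjusted p = 0.0273). Ifng itself was under the filter, at 1.08, 0.448 and 0.282 in HdR and 0.206, 1.05 and 0.2 in WT. Irf1, a transcription factor that drives GBP genes, read 34.5, 23.2 and 58.8 in HdR and 54.5, 55 and 34.7 in WT and did not pass (-0.37, adjusted p = 0.386). Of 11 tested genes of this list 2 rose (18.2%), against 12.7% of all genes tested. With the replicate block 3 rose, and with scaling to total bases 0 rose. With no filter Ifngr1 kept its call, while Ifngr2 (limma adjusted p = 0.0623) and Jak1 (0.0596) did not. Ifngr1 lost its call without WT replicate 1, Ifngr2 without HdR replicate 1, HdR replicate 2, WT replicate 1 or WT replicate 3, and Jak1 without HdR replicate 2, WT replicate 1 or WT replicate 3 and with the length trend removed.

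Among 19 tested targets that respond chiefly to interferon gamma, 4 were higher and 4 lower (21.1% each), with a median log2 change of -0.26. Over all genes tested 12.7% were higher and 17.9% lower, so both shares are not far above the background. The higher genes were Ubd (1.94), a ubiquitin-like modifier also induced by TNF, and the MHC class II genes H2-DMa (1.16), H2-Aa (1.03) and H2-Ab1 (0.90). The lower genes were Tapbp (-0.87), Tap1 (-0.74), Nlrc5 (-0.72) and Cd274 (-0.82), of which the first 3 serve MHC class I presentation. Other genes of both presentation pathways in the list were not called. Of class II these were Cd74 (0.14) and Ciita (-0.26), and of class I Psmb8 (0.15), Psmb9 (0.34), Psmb10 (-0.26) and Tap2 (-0.41). The higher count was 2 without HdR replicate 1 or HdR replicate 2, and the lower count was 1 with the length trend removed, with no filter or without HdR replicate 2 and 2 without HdR replicate 3; both were 0 without WT replicate 1. With the replicate block 6 were lower. Cxcl9, a chemokine gene induced by interferon gamma, read 247, 350 and 52.2 in HdR and 335, 839 and 109 in WT. Its highest library was 6.71 times its lowest in HdR and 7.69 times in WT, a wider spread than that of Iigp1 (1.44 and 3.43).

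IRGs and GBPs are loaded onto vacuoles with the help of the ATG conjugation system and ubiquitin ligases. Of 14 such genes 6 were higher, against 12.7% of all genes tested, and 2 were lower, the E3 ligase genes Rnf213, at 71.3 ± 4.7 in HdR and 229 ± 44.5 in WT (log2 change -1.65, limma adjusted p = 0.00257), and Trim21 (-0.86, adjusted p = 0.0254). The higher genes were Gabarapl1 (0.67), Map1lc3b (0.66), Atg3 (0.71), Gabarapl2 (0.50), Gabarap (0.89) and Map1lc3a (0.45), which encode ATG8-family proteins and the enzyme that conjugates them to lipid. The higher count was 0 with scaling to total bases, 2 with the length trend removed, without HdR replicate 1 or without HdR replicate 3, 1 with no filter or without HdR replicate 2, and 0 without WT replicate 1 or WT replicate 3. The lower count was 1 with no filter and without HdR replicate 1, HdR replicate 2 or WT replicate 1. With the replicate block 3 were lower.

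Some GBPs are anchored to membranes by prenylation. Of 5 genes of that machinery 2 were called lower, against 17.9% of all genes tested. The methyltransferase gene Icmt fell to 21.7 ± 5.13 in HdR, against 46.9 ± 8.33 in WT (log2 change -1.08, limma adjusted p = 0.0138). Pggt1b, a subunit of the geranylgeranyl transferase, also fell (-0.87, limma adjusted p = 0.0205). Pggt1b lost its call with the length trend removed and with no filter; 0 of the 5 were called without WT replicate 1 and 1 without WT replicate 3, and with the block it was 3. Of 8 genes of the caspase-11 pathway and inflammasomes, which GBPs help to activate, Il1b rose (1.85, adjusted p = 0.0154), and Casp4, the gene of caspase-11, read 80, 74.4 and 87.1 in HdR and 38, 71 and 21.6 in WT without passing (1.03, adjusted p = 0.0532). Casp4 passed with the replicate block (adjusted p = 0.0289) and without WT replicate 2 (1.47, adjusted p = 0.00385), both from limma. In this list 1 was called higher on all libraries, close to the 12.7% of all genes tested. The count was 5 without WT replicate 2 (17.9% of all genes) and 3 with the replicate block (18.3%). It was 0 with no filter (4.37%) or without HdR replicate 2 (5.18%).

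Markers of several cell types differed between genotypes. For all marker counts below, the shares over all genes tested were 12.7% higher and 17.9% lower. Hair follicle markers summed to 20 to 69.4 in HdR and 395 to 597 in WT, and 8 of 8 were lower. Adipocyte markers summed to 1980 to 2950 in HdR and 521 to 611 in WT, with 4 of 5 higher, and neutrophil markers to 698 to 3180 in HdR and 142 to 198 in WT, with 5 of 6 tested higher. With each library left out, these counts were 8, 4 and 4 to 5. Macrophage and monocyte markers summed to 2130 to 2530 in HdR and 729 to 1350 in WT, with 6 of 10 higher; the count was 3 with no filter, with scaling to total bases or without HdR replicate 1 or WT replicate 3, 4 without HdR replicate 3 and 2 without WT replicate 1, and with the replicate block it was 7. Of 6 skeletal muscle markers 3 were higher and 0 lower, while the changes of Myh1 (-1.05), Myh4 (-0.99) and Acta1 (-0.16) were negative. With the replicate block or without WT replicate 2, 3 were higher and 2 lower. The higher count was 2 with the length trend removed, with quantile scaling or without WT replicate 3, and 0 without WT replicate 1.
The other marker lists gave calls that moved with the setting. T and NK cell markers, as sources of interferon gamma, were low, summing to 39.4 to 73.1 in HdR and 33.3 to 70 in WT, and the NK receptor gene Ncr1 was at 0 in WT replicate 3. Of 7 tested T and NK markers 1, Il2rb, was lower, but none was lower with the length trend removed, with quantile scaling, with no filter or without HdR replicate 2, HdR replicate 3, WT replicate 1 or WT replicate 3. With the replicate block 1 of the 7 was higher, and without WT replicate 2 it was 2. Endothelial markers summed to 95.2 to 138 in HdR and 147 to 161 in WT; 2 of 8 were lower, 4 with the replicate block or scaling to total bases, and 0 with the length trend removed (1 higher), with quantile scaling, with no filter or without HdR replicate 1, HdR replicate 2, WT replicate 1 or WT replicate 3. Of 9 keratinocyte markers 3 were lower, 5 with scaling to total bases or quantile scaling, 1 with the length trend removed (1 higher) or without HdR replicate 1, HdR replicate 3 or WT replicate 2, and 0 with no filter or without HdR replicate 2, WT replicate 1 or WT replicate 3. Of 7 fibroblast markers 2 were lower and 1 higher; 1 was lower and 2 higher with the length trend removed, 3 were lower and 2 higher with the replicate block, and with each library left out 1 to 2 were lower and 0 to 1 higher. The part of these cell types in the coverage of the GTPase genes was not tested.

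The 8 genes outside the lists whose log2 coverage most resembled the mean standardized profile of the 10 genes, among 11570 candidates over 6 libraries, were Zfp354c (Pearson r = 0.994), Clic4 (0.978), Cysltr1 (0.972), Rian (0.970), Samd9l (0.960), Cthrc1 (0.957), Ctsk (0.957) and Tmem47 (0.953). Samd9l is itself known as interferon-induced, and read 195, 174 and 212 in HdR and 263, 435 and 164 in WT. All 8 were highest in WT replicate 2, and their limma adjusted p for genotype ran from 0.0934 (Cthrc1) to 0.391 (Tmem47). The profile used to choose them is itself highest in WT replicate 2, so this shared peak follows from the choice. Their p-values depend on the same choice, so neither result is separate evidence about these genes.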

How the data were processed

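Ear skin RNA of 3 HdR and 3 WT samples was sequenced from NEBNext Ultra II libraries on a NovaSeq instrument, per the labels' protocols. The authors deposited 1 table of signal, aligned bases summed per gene symbol, whose values gather at multiples of 300 (read pairs of 150 bases); the genome build is GRCm38 per the submitters' processing notes, and the aligner, counting program, annotation and strand setting are not named in those sources. Since these are not read counts, levels were scaled by TMM (trimming 30% of the log ratios and 5% of average levels; factors 0.792 to 0.973 in HdR and 1.02 to 1.19 in WT) and expressed per Mb. The filter kept genes reaching 1 base per Mb in 3 or more libraries. The test was limma (version 3.58.1, in R 4.3.3) with robust, trended variances on log2(level + 1), two-sided, without covariates, at an adjusted p under 0.05; 1 base per Mb equals 11.7 to 23.6 read pairs. The test was checked on simulated data with the spread of these libraries. It called 45.5% of genes changed 2-fold, 91% of those changed 4-fold and 0.00682% of unchanged genes, so a 2-fold change can be missed. The simulation held 99 genes changed 2-fold and 100 changed 4-fold among 15049, with spread drawn separately for each gene. In the data 30.6% of genes were called and libraries deviated together, so these rates need not hold for the real test. The labels do not say that samples are separate animals, so p-values measure the spread between these samples, which may be technical.

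After removal of genotype means, libraries of the same number correlated at r = 0.16 to 0.42, against -0.38 to 0.16 for other numbers. These ranges meet at 0.16, and removal of the means ties the values to each other, so they cannot establish a pairing. The replicate number was used as a block in an alternative fit only, and the labels do not state a pairing. The length trend was a natural spline with 4 degrees of freedom on log2 of the longest GENCODE M21 transcript, which gave lengths to 23087 of the 23518 symbols. The genes, lists, rule for naming genes and alternatives were chosen with earlier results of these data known. All 10 genes are named; of each pathway list the called genes were counted and up to 4 with the smallest p could be named, with further ones named after their values were seen; 8 genes were named by likeness among those with a mean of at least 5 bases per Mb. Alternatives were other scalings, filters and pseudocount, voom, the replicate block, the length trend, a threshold of 0.1 and each library left out. The result of 1 gene of the interferon gamma signalling list, and that list's count of lower genes, are not reported here.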

Additional observations from a re-analysis of the deposited data

How the results depend on the processing

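The count of the 10 GTPase genes called lower, 2, was 4 with scaling to total bases, 4 with the replicate block, 1 with no filter, 1 with the length trend removed and 1 with the length trend removed and without WT replicate 2 (added after seeing the data); leaving out 1 library gave 0 to 3. The count called higher was 0 in all 18 alternatives. Over all genes, 1904 were higher and 2701 lower; the counts were 917 and 4305 with scaling to total bases (median change -0.41), 1017 and 1127 with no filter, and 3408 and 4647 with voom, while lower calls were 4094 with the replicate block and 1263 with the length trend removed. Leaving out 1 library gave 197 to 2657 higher and 230 to 3359 lower. Quantile scaling gave 2351 higher and 2073 lower.

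Gbp3 kept its direction in 18 of 18 alternatives (-1.64 to -1.06) and its call in 17; Gbp6 kept its direction in 18 and its call in 10. Signs turned for Gbp4 (0.18 with the length trend removed, alone or with the replicate block, and 0.16 without WT replicate 2, against -0.47 without WT replicate 3) and for Iigp1 (0.17 without WT replicate 2, against -0.73 without WT replicate 3). With the length trend removed and without WT replicate 2 they turned for Gbp4 (0.54), Gbp5 (0.08), Gbp7 (0.09), Irgm1 (0.18), Irgm2 (0.14) and Iigp1 (0.30). The causes were not tested. With the length trend removed and the replicate block, Gbp2 (adjusted p = 0.0244) and Igtp (adjusted p = 0.0397) were called beside Gbp3, all p from limma.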
